A study of Mus musculus with 4 samples.

Results

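Translation initiation factors are the proteins that bring the initiator tRNA, the ribosomal subunits and the messenger RNA together at the start codon. The members were the 51 protein-coding genes whose symbol begins with Eif followed by a digit from 1 to 6, out of 21470 genes in the deposited count table, with the eIF2 kinases and the eIF4E-binding proteins left out. They comprised 8 genes of the eIF1 class, 11 of eIF2, 14 of eIF3, 13 of eIF4, 4 of eIF5 and 1 of eIF6. A total of 45 members passed the filter on low counts and were tested, 22 of them passed the edgeR test in at least 1 of 5 comparisons, and 23 passed in none. The matching share over all 6943 tested genes was not computed, so these counts alone do not set the members apart. The rule reads gene names alone, and the set was picked with earlier results of these data known.

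The study dissected wild-type mouse embryos, sired by B6D2F1 males in ICR females, into an embryonic part (inner cell mass, ICM) and an extra-embryonic part (trophectoderm, TE). The 4 groups were D10 ICM, E4 ICM, D10 TE and E4 TE, with 5 libraries each. The submitters' barcode list writes the later time as D10_day6 and the earlier as E4_before, and the series title names a time before and a time after embryonic diapause, in which the blastocyst stops growing before it implants. The extraction protocol uses the word diapause for all samples, so the sources differ on E4. The same list gives a litter for each library, with ICM and TE taken from the same 5 litters at D10 and from 5 other litters at E4, 2 of which still had a zona pellucida. Libraries were read from the 3′ ends of polyadenylated RNA (BRB-seq), and the replicates of a group were mixed before amplification, so group and amplification pool cannot be told apart. Neither the labels nor the files say whether a library is 1 embryo or several. Within a group each library is from another litter, so the p-values given here reflect spread between litters together with technical spread of unknown size.

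Initiation begins when the GTPase eIF2, loaded with GTP by the exchange factor eIF2B, carries the initiator tRNA to the small subunit, where eIF1, eIF1A, eIF3 and eIF5 take part in scanning for the start codon. The messenger RNA is brought in by the eIF4 group, which recognises the cap and unwinds the leader, and eIF5B joins the large subunit. Phosphorylation of eIF2 and sequestration of the cap-binding protein are the best known brakes on these steps. Diapause embryos are known for low rates of protein synthesis, and transcript levels such as those measured here do not show the amount or the phosphorylation of the proteins.

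Each library held between 144276 and 1010354 counts, over 9458 to 14402 detected genes. Levels are given as CPM, the count relative to the library total over tested genes after TMM scaling and brought to a common size. A count of 0 allows up to 3 counts, for counting error only. This is 21.5 CPM for the library of lowest depth and 3.15 CPM for that of highest depth. The mitochondrial share of counts was 7.86% to 18.9%. Lineage markers followed the labels in part. Over 15 epiblast markers the summed level was 1639.7 to 2326 CPM in D10 ICM, 3027 to 4622 in E4 ICM, 680.1 to 1314 in D10 TE and 1359 to 3834 in E4 TE. Pou5f1, Fgf4, Prdm14 and Otx2 were at 0 in both TE groups, and of these only Fgf4 passed the count filter. The zeros of Pou5f1, Prdm14 and Otx2 do little to set the tissues apart, since their counts were low in the ICM as well. Most of the TE sums was Dppa5a, with a mean of 594 CPM in D10 TE and 2250 CPM in E4 TE, against 490 CPM in D10 ICM and 834 CPM in E4 ICM. Of the 12 epiblast markers tested, 10 were higher in ICM than in TE at D10, and 11 were higher and 1, Dppa5a, lower at E4. Over 15 primitive endoderm markers it was 8797 to 11753 CPM in D10 ICM, 2111 to 5239.5 in E4 ICM, 2679.8 to 4029.9 in D10 TE and 1203 to 1640.0 in E4 TE, and Sox7 was at 0 in both TE groups. Over 15 trophectoderm markers it was 3655 to 5806 CPM in D10 ICM, 2256 to 3221 in E4 ICM, 7789 to 10674 in D10 TE and 7772 to 9045 in E4 TE. All 15 trophectoderm markers had a count in D10 ICM and 14 in E4 ICM, and every D10 ICM library had a higher summed level than every E4 ICM library. Of 5 genes listed for maternal tissue and blood in the table, only Epcam, which epithelia of the embryo also express, was tested, and the sum of the list is nearly all Epcam, so it does not measure maternal tissue. Of the others, Hba-a1 reached 130.1 CPM in D10 ICM replicate 4 and 63.3 CPM in E4 TE replicate 1, and Hbb-bs reached 17.3 CPM in the same E4 TE library. Ptprc and Ltf were at 0 in every group but D10 ICM. The part of these marker levels in the results below was not tested. In such bulk samples fewer cells of a type and less RNA per cell cannot be told apart.

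The start regions of 6 members are shown because these genes carry the changes described below or differ in the sequence that is read at the start of the transcript. Each line gives 60 bases of the RefSeq promoter table (GRCm38.p6), 30 before the annotated start and 30 from it on, 5′ to 3′ on the strand of the gene. Eif2s2 lies at chr2:154892877-154892936 on the minus strand and Eif4b at chr15:102073743-102073802 on the plus strand, and neither has capitals because no motif was matched in the window. For Eif2s3x (chrX:94212622-94212681, minus), Eif2s3y (chrY:1010565-1010624, plus) and Eif3f (chr7:108934385-108934444, plus) the capitals mark a run of pyrimidines that begins with C within 5 bases of the annotated start, the letters with which transcripts of many ribosomal proteins and translation factors begin. For Eif4g1 (chr16:20672697-20672756, plus) the capitals mark an E-box, CACGTG, the sequence that Myc and related factors bind. Eif4g1 also has a run of pyrimidines at its start, which is left in lower case.
Eif2s2: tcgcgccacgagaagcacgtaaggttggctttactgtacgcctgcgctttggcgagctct
Eif4b: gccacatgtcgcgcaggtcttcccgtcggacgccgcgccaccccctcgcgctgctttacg
Eif2s3x: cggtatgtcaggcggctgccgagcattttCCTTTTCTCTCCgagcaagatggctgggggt
Eif2s3y: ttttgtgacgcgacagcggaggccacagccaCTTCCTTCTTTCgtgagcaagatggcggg
Eif3f: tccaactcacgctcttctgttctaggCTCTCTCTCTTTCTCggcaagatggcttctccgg
Eif4g1: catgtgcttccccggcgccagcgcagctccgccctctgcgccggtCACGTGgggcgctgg
Of the 51 members, 38 had an entry in that table. Their promoters of 300 bases, 250 of them before the start, held CACGTG on either strand in 10 (26.3%), against 8.09% of all 27025 genes in the table and 13.1% of the 5457 tested genes with an entry. The motif CGTGACG was found in 3 (7.89%), against 2.68% of all and 6.32% of tested genes, and TGATGCAA in 0, against 1.03% and 0.678%. A C followed by at least 4 pyrimidines within 5 bases of the start was found in 10 (26.3%), against 21.2% of all and 24.4% of tested genes. These matches describe letters in a window and were not tested. Eif4a1, Eif4g1 and Eif5a, which fell in 1 tissue each at D10, were among the 10 with an E-box. So were Eif1b, Eif3a, Eif3f, Eif3k, Eif4e, Eif4h and Eif5a2. These were not tested, or not called across time by edgeR with all libraries and a count minimum of 10.

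Across time, D10 against E4, more initiation factors were called lower than higher in the ICM. In the TE more were called higher than lower, which held for the adjusted calls and not at an unadjusted p under 0.05. In D10 ICM 7 of the 45 tested members fell (15.6%) and 1 rose (2.22%), read against 9.97% of all 6943 tested genes that were called lower and 13.7% called higher (edgeR quasi-likelihood test, Benjamini-Hochberg adjusted p under 0.05). The median log2 change of the 45 was -0.276, with 12 above 0 and 33 below, and the median over all tested genes was -0.003. Those that fell were Eif2s2 and Eif2s3x of eIF2, Eif3c of eIF3, Eif4a1 and Eif4g1 of eIF4, and Eif5 and Eif5b, and Eif4b rose. In D10 TE 8 members rose (17.8%) and 3 fell (6.67%), against 11.9% of all tested genes called higher and 9.89% called lower, with a median log2 change of 0.032 beside 0.021 over all genes. In the TE 23 changes were above 0 and 22 below. At an unadjusted p under 0.05 the same edgeR test had 10 higher and 12 lower in the TE, and 1 higher and 15 lower in the ICM. Those that rose were Eif2a, Eif2s1, Eif3d, Eif3h, Eif3i, Eif4a2, Eif4b and Eif4e2, and Eif1ax, Eif2s2 and Eif5a fell. Eif2s2 was the only member called lower in both tissues and Eif4b the only one called higher in both. The count of 8 in the TE was 5 without E4 TE replicate 1, E4 TE replicate 2 or D10 TE replicate 1 and 4 without E4 TE replicate 4 or D10 TE replicate 2, while the count of 3 that fell was 5 without E4 TE replicate 5 or D10 ICM replicate 5.

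**Figure D1:**
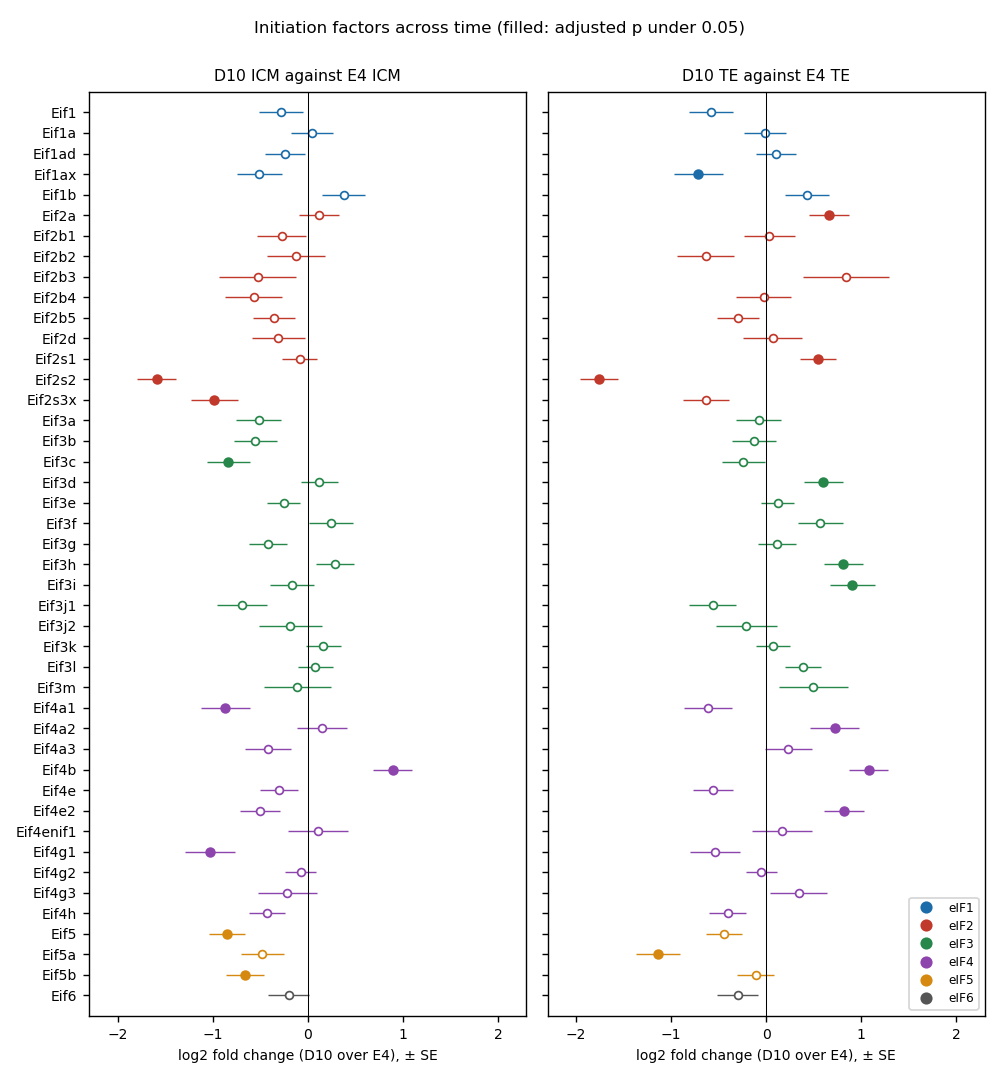
Log2 fold change of each tested initiation factor except Eif2s3y, D10 over E4, in the ICM (left) and the TE (right). Points are the fitted changes, bars ± 1 standard error, colours the eIF class, and filled points passed the adjusted p of 0.05. Eif2s2 stands at -1.59 in the ICM and -1.76 in the TE, and Eif4b at 0.89 and 1.08.

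Summed over all 51 members the level was 10562, 11386, 10282, 10917 and 9849 CPM in the D10 ICM libraries and 16889, 13952, 14915, 14224 and 15017 CPM in the E4 ICM libraries. In the TE it was 9803, 9675, 10105, 10633 and 10700.2 CPM at D10 and 13983, 13853, 14313, 12342 and 11133 CPM at E4. In both tissues every D10 library was below every E4 library. With Eif2s2 left out of the sum the ICM had 9435 ± 743 CPM at D10 and 11501 ± 1015 CPM at E4, still without overlap, and the TE 9064 ± 327 CPM at D10 and 9339 ± 701 CPM at E4 (mean ± SD, n = 5 each), which overlapped. No test was made on these sums.

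Between the tissues, ICM against TE, the calls at D10 and E4 are given in turn. The 5 comparisons share libraries, so their calls are not independent. At E4, 10 members were higher in the ICM (22.2%) and 0 were lower, against 15.8% of all tested genes called higher and 15.4% called lower. At an unadjusted p under 0.05 the same edgeR test had 14 higher and 0 lower, and DESeq2 and limma voom also called 0 lower. The 10 were Eif1ax, Eif2b3, Eif2d, Eif2s1, Eif3b, Eif3c, Eif3d, Eif3g, Eif3i and Eif4e2, and the median log2 difference of all 45 was 0.338, with 36 above 0, beside 0.035 over all genes. At D10, 3 members were higher in the ICM, Eif1ax, Eif4e and Eif5a (6.67%, against 12.9% of all genes), and 2 were lower, Eif4e2 and Eif5b (4.44%, against 12.6%). With replicate 1 or 5 of the D10 ICM left out, or replicate 4 or 5 of the D10 TE, the count of 2 was 1. The D10 median was 0.031 beside 0.014 over all genes. The E4 count rests on narrow calls. With 1 E4 ICM library left out it was 5 (replicates 1 and 3) or 6 (replicates 2 and 4). With 1 E4 TE library left out it was 6 (replicates 1 and 2) or 4 (replicates 4 and 5), and it was 3 without the litters that had a zona.

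**Figure D2:**
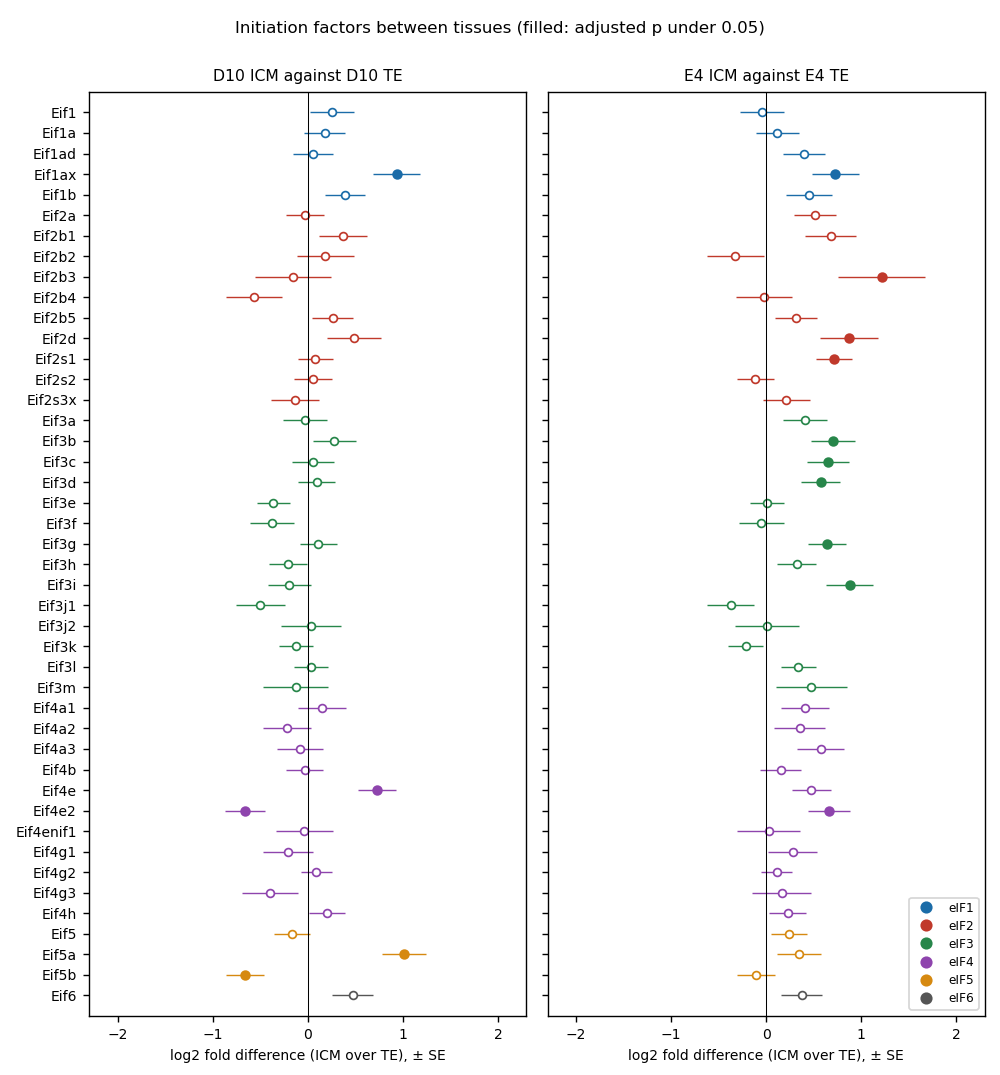
Log2 fold difference of each tested initiation factor except Eif2s3y, ICM over TE, at D10 (left) and E4 (right). Points are the fitted differences, bars ± 1 standard error, colours the eIF class, and filled points passed the adjusted p of 0.05. Over all 45 tested members, 36 differences are above 0 at E4 and 23 at D10. The 45 include Eif2s3y, which is not drawn and is below 0 at both times (log2 -0.27 at E4 and -1.33 at D10).

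The change across time differed between the tissues for 1 member. Eif4e2 had an interaction (the D10 minus E4 change in the ICM minus that in the TE) of -1.32 ± 0.30 on the log2 scale (edgeR adjusted p = 0.0094). This was 1 lower of 45 (2.22%) and 0 higher, against 1.83% of all genes called lower and 3.15% called higher, and at an unadjusted p under 0.05 edgeR had 4 lower and 0 higher. The median interaction of the 45 was -0.347, with 10 above 0 and 35 below, beside -0.018 over all genes. With litter as a block, with DESeq2, with limma voom or with a count minimum of 30, Eif3i was a second call, and the number called lower was 2, as it was without D10 ICM replicate 3 or D10 TE replicate 4. Without the E4 litters with a zona it was 0.

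Of the factors that bind the initiator tRNA, the subunits of eIF2 did not move together. Eif2s2 (chromosome 2, 154871410 to 154892935, minus strand, GRCm38, GENCODE vM21) encodes the beta subunit, which contacts eIF5 and eIF2B. In the ICM it stood at 979, 1297, 1191, 834 and 1518 CPM in the D10 libraries and 3810.2, 3589, 3146, 3159 and 3789 CPM in the E4 libraries. In the TE it stood at 1129.8, 785, 1149, 1179 and 1352 CPM at D10 and 4321, 4255, 4238, 3221 and 2890.5 CPM at E4. In both tissues every D10 library was below every E4 library, and the change was log2 -1.59 ± 0.20, adjusted p = 6.5e-06 in the ICM and log2 -1.76 ± 0.20, adjusted p = 8.96e-07 in the TE. Both calls were kept in all 28 alternatives of the processing, with log2 changes of -1.671 to -1.499 in the ICM and -1.867 to -1.659 in the TE. The tissues did not pass the test against each other at D10 (log2 0.06 ± 0.20, adjusted p = 0.887) or at E4 (log2 -0.11 ± 0.20, adjusted p = 0.695).

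Eif2s3x, on the X chromosome, encodes the gamma subunit, which binds GTP and the tRNA. It had 124, 129, 83.1, 93.4 and 69.7 CPM in D10 ICM against 222, 162, 236, 219 and 159 CPM in E4 ICM, with no overlap (log2 -0.98 ± 0.25, adjusted p = 0.00582). In the TE it had 111, 139, 78.2, 133 and 92.9 CPM at D10 and 201, 95.4, 197, 241 and 107 CPM at E4, which overlapped and did not pass (log2 -0.63 ± 0.25, adjusted p = 0.0645). Eif2s1, the alpha subunit whose phosphorylation slows initiation, had 447, 585, 482, 566 and 306 CPM in D10 ICM and 545, 459.7, 568, 440.4 and 542 CPM in E4 ICM (log2 -0.09 ± 0.18, adjusted p = 0.781). In the TE it had 478, 479, 385, 557 and 374 CPM at D10 and 322, 290.3, 355, 331 and 250.4 CPM at E4, so every D10 TE library was above every E4 TE library (log2 0.55 ± 0.19, adjusted p = 0.0381). That TE call was lost with any of 14 libraries left out (adjusted p up to 0.109). At E4 Eif2s1 was higher in the ICM than in the TE in 5 of 5 litters (log2 0.71 ± 0.19, adjusted p = 0.00559), a call kept with any 1 library left out and lost with no filter on low counts (adjusted p = 0.0578) and without the E4 litters with a zona (adjusted p = 0.0804).

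The eIF2 class summed to 2260.2 ± 227 CPM in D10 ICM and 4791 ± 334 CPM in E4 ICM, and to 2189.7 ± 210.4 CPM in D10 TE and 4705 ± 736 CPM in E4 TE (mean ± SD, n = 5 each). Without Eif2s2 the sums were 1096 ± 103 and 1293 ± 106 CPM in D10 and E4 ICM, and 1071 ± 85.9 and 919.8 ± 86 CPM in D10 and E4 TE, so the sign of the TE difference turned. Of the exchange factor eIF2B, Eif2b1 to Eif2b5, 0 subunits passed across time by edgeR, DESeq2 or limma voom. Over all tested genes edgeR called 13.7% higher and 9.97% lower in the ICM, and 11.9% and 9.89% in the TE. Beside these shares, 0 among so few subunits says little. At an unadjusted p under 0.05 edgeR had 1, Eif2b2, lower in the TE (log2 -0.64 ± 0.30, adjusted p = 0.129). Eif2b1, the alpha subunit that senses phosphorylated eIF2, had 105, 112, 99.7, 145 and 69.7 CPM in D10 ICM, 171, 141, 114, 103 and 146 CPM in E4 ICM, 60.2, 130.5, 52.2, 83.9 and 98.3 CPM in D10 TE and 80.6, 91.2, 114, 71.7 and 42.9 CPM in E4 TE. Its ICM libraries were higher than the TE at E4 in 4 of 5 litters without passing (log2 0.68 ± 0.27, adjusted p = 0.0569), and did pass without E4 TE replicate 3 (adjusted p = 0.0346) and with a count minimum of 30 (adjusted p = 0.0434). Eif2b3, a low-count subunit at 17.2 to 49.6 CPM in E4 ICM and 8.3 to 28.6 CPM in E4 TE, passed narrowly there (log2 1.21 ± 0.46, adjusted p = 0.0451) and was lost with any of 13 libraries left out (adjusted p up to 0.132).

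Factors that deliver the initiator tRNA outside the usual eIF2 route are Eif2a and Eif2d. Eif2a, which is not a subunit of eIF2, had 151, 177, 158, 121 and 216 CPM in D10 TE and 127, 87.1, 87.6, 109.6 and 114 CPM in E4 TE, overlapping at the margin (log2 0.66 ± 0.21, adjusted p = 0.0262). It had 185, 168, 144, 129 and 186 CPM in D10 ICM and 158, 109.7, 199, 155 and 116 CPM in E4 ICM (log2 0.12 ± 0.21, adjusted p = 0.727). The TE call was lost without E4 TE replicate 2, 3 or 4 or D10 TE replicate 2 or 5 (adjusted p up to 0.0886). Eif2d had 25.4 to 62.7 CPM in E4 ICM and 16.6 to 36.5 CPM in E4 TE (log2 0.86 ± 0.30, adjusted p = 0.0324), and with litter as a block it no longer passed (adjusted p = 0.0515). It was also lost when replicate 2, 3 or 5 of the E4 ICM, or 2, 4 or 5 of the E4 TE, was left out (adjusted p up to 0.104).

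Of the factors of start-codon selection, Eif1, which opens the small subunit for scanning, had 357, 430.1, 299, 395 and 367 CPM in D10 ICM and 558, 418, 489, 401 and 396 CPM in E4 ICM (log2 -0.28 ± 0.23, adjusted p = 0.417). It had 290.2, 292, 243, 369 and 363 CPM in D10 TE and 426, 332, 862, 343 and 336 CPM in E4 TE, where replicate 3 stood far above the others (log2 -0.58 ± 0.23, adjusted p = 0.0739). That change passed when replicate 2, 4 or 5 of the E4 TE was left out (adjusted p = 0.0437, 0.0493 and 0.0482). Eif1ax, the X-linked gene for eIF1A, which occupies the empty tRNA site during scanning, was above the TE in the ICM at both times. It had 109, 140.1, 138, 104 and 116 CPM in D10 ICM and 49.3, 87.7, 42.1, 50.7 and 90.1 CPM in D10 TE, with 5 of 5 litters in that direction and no overlap of the groups (log2 0.94 ± 0.25, adjusted p = 0.00649). At E4 it had 152, 196, 159.8, 182 and 168 CPM in the ICM and 104, 145, 51.1, 106 and 129 CPM in the TE, again in 5 of 5 litters and without overlap (log2 0.73 ± 0.25, adjusted p = 0.0275). The E4 call was lost when replicate 2 or 4 of the E4 ICM, or 1, 3 or 4 of the E4 TE, was left out (adjusted p up to 0.119), and the D10 call was kept with any 1 library left out and lost with thinned libraries (adjusted p = 0.071). Across time Eif1ax fell in the TE (log2 -0.72 ± 0.26, adjusted p = 0.0473), narrowly, since the call was lost without E4 TE replicate 1, 2, 4 or 5 or D10 TE replicate 1, 3 or 4 (adjusted p up to 0.132). In the ICM every D10 library was below every E4 library without passing (log2 -0.51 ± 0.24, adjusted p = 0.13). The autosomal copy Eif1a did not pass in any comparison (log2 0.04 in the ICM and -0.02 in the TE across time).

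Eif5, which makes eIF2 hydrolyse its GTP at the start codon, fell in the ICM. It had 138, 169.7, 205, 248 and 176 CPM in D10 ICM against 380.4, 329, 371, 335 and 292 CPM in E4 ICM, without overlap (log2 -0.85 ± 0.19, adjusted p = 0.00215). Its TE values were 164, 199.8, 197, 286 and 213 CPM at D10 and 276, 257, 246, 353 and 308 CPM at E4, which overlapped (log2 -0.44 ± 0.19, adjusted p = 0.0962), and the change passed without D10 TE replicate 4 (adjusted p = 0.0332). Eif5b, the GTPase that joins the large subunit, had 328, 315, 266, 367 and 344 CPM in D10 ICM against 482, 345, 602, 585 and 559 CPM in E4 ICM (log2 -0.66 ± 0.20, adjusted p = 0.0176), and 595, 440.4, 487, 664 and 374 CPM in D10 TE against 575, 523, 545, 707 and 408 CPM in E4 TE (log2 -0.11 ± 0.20, adjusted p = 0.732). At D10 every ICM library was thus below every TE library (log2 -0.66 ± 0.20, adjusted p = 0.0157). The call across time in the ICM was lost without E4 ICM replicate 3 (adjusted p = 0.0562), and the D10 difference without D10 TE replicate 4 (adjusted p = 0.0564). The difference of its changes between the tissues did not pass (log2 -0.55 ± 0.28, adjusted p = 0.286).

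Eif5a encodes a hypusine-bearing factor, first named for initiation and now known to help the ribosome form difficult peptide bonds. It had 569, 581, 441, 550.3 and 596 CPM in D10 TE against 1295, 1688, 1008, 956 and 1080.3 CPM in E4 TE, without overlap (log2 -1.14 ± 0.23, adjusted p = 0.000916). In the ICM it had 1079, 1524, 665, 1403 and 813 CPM at D10 and 2175, 1279.8, 1199.9, 1334 and 1703 CPM at E4, which overlapped (log2 -0.48 ± 0.23, adjusted p = 0.138). At D10 the ICM was above the TE in 5 of 5 litters and without overlap (log2 1.01 ± 0.23, adjusted p = 0.00193). Both calls were kept in all alternatives, while the difference of its changes did not pass (log2 0.66 ± 0.33, adjusted p = 0.268). Eif6, which keeps the large subunit from joining too early, had 285, 242, 183, 262 and 158 CPM in D10 ICM, 292, 204, 292, 236 and 297 CPM in E4 ICM, 169.7, 186, 156, 213 and 92.9 CPM in D10 TE and 161, 182, 241, 191 and 236 CPM in E4 TE. It was higher in the ICM in 5 of 5 litters at both times and did not pass at D10 (log2 0.47 ± 0.21, adjusted p = 0.108) or E4 (log2 0.37 ± 0.22, adjusted p = 0.2), and without D10 ICM replicate 5 it passed at D10 (adjusted p = 0.0476).

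The subunits of eIF3, the scaffold that binds the small subunit and recruits the messenger RNA, were all 14 tested. Across time in the ICM 1 of 14 fell and 0 rose, with a median log2 change of -0.174, and in the TE 3 rose and 0 fell, with a median of 0.117. The ICM share of 7.14% lower stands beside 9.97% of all tested genes, and the TE share of 21.4% higher beside 11.9%. Eif3c, of the core, fell in the ICM, where it had 285, 254, 205, 248 and 209 CPM at D10 against 431, 298, 595, 445 and 378 CPM at E4, without overlap (log2 -0.84 ± 0.22, adjusted p = 0.00809). Its TE values were 175, 212, 253, 279.5 and 240.4 CPM at D10 and 305, 319, 382, 177 and 179 CPM at E4 (log2 -0.24 ± 0.22, adjusted p = 0.48). Eif3h, a subunit outside the core, rose in the TE, with 361, 334, 489, 283 and 492 CPM at D10 against 293, 187, 231, 213 and 193 CPM at E4 (log2 0.81 ± 0.20, adjusted p = 0.00516). The groups overlapped by 1 library each, and the call was kept in all 28 alternatives. In the ICM Eif3h had 295, 415, 349, 378 and 246 CPM at D10 and 285, 350.0, 278, 227 and 254 CPM at E4 (log2 0.28 ± 0.20, adjusted p = 0.329).

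Eif3i, a subunit bound to the core through Eif3b, had 162, 194, 207, 135 and 276 CPM in D10 TE against 109, 137, 97.4, 97.6 and 71.5 CPM in E4 TE (log2 0.91 ± 0.24, adjusted p = 0.00745). In the ICM it had 99.8, 194, 266, 157 and 130.0 CPM at D10 and 171, 193, 176, 211 and 194 CPM at E4 (log2 -0.17 ± 0.23, adjusted p = 0.655). At E4 every ICM library was above every TE library (log2 0.88 ± 0.24, adjusted p = 0.00735), and this call and the TE change, which share the E4 TE libraries, were kept in all alternatives. The difference of its changes between the tissues narrowly did not pass (log2 -1.07 ± 0.33, adjusted p = 0.0612) and did with litter as a block (log2 -1.08, adjusted p = 0.043). Eif3d, a subunit that can bind the cap, rose narrowly in the TE, with 299, 334, 341, 349 and 273 CPM at D10 against 201, 290.3, 243, 195 and 107 CPM at E4 (log2 0.60 ± 0.20, adjusted p = 0.0327). Its ICM values were 261, 409, 349, 331 and 348 CPM at D10 and 368, 293, 354, 277 and 279.5 CPM at E4 (log2 0.12 ± 0.20, adjusted p = 0.706). The TE call was lost without E4 TE replicate 1, 4 or 5 or D10 TE replicate 1, 2, 3 or 4 (adjusted p up to 0.104).

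At E4 5 of the 14 eIF3 subunits were higher in the ICM than in the TE and at D10 0 were, by edgeR, DESeq2 and limma voom alike. At an unadjusted p under 0.05 edgeR had 1 at D10, Eif3e, lower in the ICM (log2 -0.36 ± 0.17, adjusted p = 0.131). The E4 share of 35.7% stands beside 15.8% of all tested genes. At D10 0 higher and 0 lower by edgeR stand beside 12.9% of all tested genes called higher and 12.6% called lower. With 14 subunits these shares rest on few genes. The class median was 0.373 at E4 and -0.076 at D10. Besides Eif3i these were Eif3b, Eif3c, Eif3d and Eif3g. Eif3b, a core subunit, had 222, 162, 211, 161 and 133 CPM in E4 ICM and 97.8, 108, 119, 118 and 93 CPM in E4 TE, without overlap (log2 0.70 ± 0.23, adjusted p = 0.0234). Its D10 values were 147, 120.3, 83.1, 137 and 107 CPM in the ICM and 85.8, 55.1, 88.3, 138 and 131 CPM in the TE. Eif3g, which takes part in scanning, had 266, 235, 204, 211 and 361 CPM in E4 ICM and 207, 182, 112, 177 and 136 CPM in E4 TE (log2 0.64 ± 0.20, adjusted p = 0.0169), and 185, 191, 233, 195 and 144 CPM in D10 ICM and 166, 165, 181, 189 and 178 CPM in D10 TE. The difference was log2 0.65 ± 0.22, adjusted p = 0.0284 for Eif3c and log2 0.57 ± 0.20, adjusted p = 0.0343 for Eif3d. Each of these 4 calls was lost with some library left out. For Eif3b these were E4 ICM replicates 1 and 3 and E4 TE replicates 1, 2 and 5 (adjusted p up to 0.0814), for Eif3c E4 ICM replicates 1, 3 and 4 and E4 TE replicates 4 and 5 (up to 0.14), for Eif3g E4 ICM replicate 5 and E4 TE replicates 3 and 5 (up to 0.0859), and for Eif3d any of 13 libraries (up to 0.123). Eif3a, the largest core subunit, had 504, 247, 432, 320.1 and 455 CPM in D10 ICM, 418, 418, 781, 583 and 555 CPM in E4 ICM, 438, 281, 499.5, 388 and 366 CPM in D10 TE and 547, 265, 416, 496 and 358 CPM in E4 TE, and did not pass in any comparison (log2 -0.52 in the ICM across time, adjusted p = 0.113).

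In the eIF4 class, which brings in the capped messenger RNA, Eif4b rose in both tissues. Eif4b stimulates the helicase eIF4A. It had 257, 216, 216, 186 and 283 CPM in D10 ICM against 146, 104, 116, 153 and 98.9 CPM in E4 ICM (log2 0.89 ± 0.20, adjusted p = 0.00237). It had 223, 194, 289, 199 and 270.4 CPM in D10 TE against 86.3, 87.1, 141, 104 and 136 CPM in E4 TE (log2 1.08 ± 0.20, adjusted p = 0.000412). Every D10 library was above every E4 library in each tissue, and both calls were kept in all 28 alternatives. Eif4h, which stimulates the same helicase, had 204 to 341 CPM in D10 ICM, 267 to 514 in E4 ICM, 209 to 314 in D10 TE and 272 to 365 in E4 TE, and did not pass (log2 -0.43 in the ICM and -0.41 in the TE across time).

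The helicase genes themselves differed. Eif4a1 had 252, 153, 144, 162 and 353 CPM in D10 ICM against 507, 339.5, 336, 368 and 369.8 CPM in E4 ICM, overlapping through D10 replicate 5 (log2 -0.87 ± 0.25, adjusted p = 0.0141), and the call was lost without D10 ICM replicate 2 (adjusted p = 0.0573) and without the E4 litters with a zona (adjusted p = 0.0839). In the TE Eif4a1 had 146, 273, 142, 229 and 148 CPM at D10 and 374, 324, 260.5, 283 and 193 CPM at E4 (log2 -0.61 ± 0.25, adjusted p = 0.0817), a change that passed without E4 TE replicate 5, D10 ICM replicate 5 or D10 TE replicate 2 (adjusted p = 0.0495, 0.0446 and 0.0316). Eif4a2, the close relative of Eif4a1, had 239, 294, 309, 225 and 169 CPM in D10 TE against 92.1, 178, 114, 175 and 193 CPM in E4 TE (log2 0.72 ± 0.26, adjusted p = 0.0482), a call lost with any of 15 libraries left out (adjusted p up to 0.131). In the ICM Eif4a2 had 333, 189.5, 260.4, 119 and 190.4 CPM at D10 and 114, 180.2, 204, 217 and 232 CPM at E4 (log2 0.15 ± 0.26, adjusted p = 0.728).

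Eif4g1, the scaffold that joins the cap-binding protein to the helicase and eIF3, fell in the ICM. It had 171, 79.1, 60.9, 169 and 78.9 CPM in D10 ICM against 285, 175, 229, 254 and 232 CPM in E4 ICM, without overlap, D10 replicates 1 and 4 standing well above the other D10 libraries (log2 -1.03 ± 0.26, adjusted p = 0.00613). Its TE values were 120.5, 102, 134, 138 and 169 CPM at D10 and 259, 228, 117, 165 and 215 CPM at E4, which overlapped (log2 -0.54 ± 0.26, adjusted p = 0.145). Eif4g2, the relative that lacks the binding site for the cap-binding protein, had 955, 981, 1113, 1057 and 729 CPM in D10 ICM and 1224, 1071, 889, 968 and 950.4 CPM in E4 ICM. Eif4g2 had 931, 983, 827, 933 and 871 CPM in D10 TE and 961, 908, 1037, 954 and 851 CPM in E4 TE, and its changes were small (log2 -0.07 ± 0.16 in the ICM and -0.05 ± 0.16 in the TE), neither passing the test. Eif4g3, a further relative, did not pass in any comparison.

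The cap-binding genes Eif4e and Eif4e2 lay in opposite directions between the tissues at D10. Eif4e encodes the protein that recruits the scaffold, and it had 128, 148, 99.7, 156 and 92.9 CPM in D10 ICM and 78.5, 85.6, 72.2, 94.3 and 54.6 CPM in D10 TE, higher in the ICM in 5 of 5 litters (log2 0.73 ± 0.20, adjusted p = 0.0089), a call lost with no filter on low counts (adjusted p = 0.0569). At E4 it had 158, 204, 146, 155 and 129 CPM in the ICM and 144, 116, 94.9, 116 and 107 CPM in the TE (log2 0.47 ± 0.21, adjusted p = 0.0836). Eif4e2 encodes a cap-binding protein (4EHP) that does not recruit the scaffold and represses its targets. It had 138, 183, 199, 225 and 135 CPM in D10 ICM and 272, 237, 263, 248 and 396 CPM in D10 TE, lower in the ICM in 5 of 5 litters and without overlap (log2 -0.66 ± 0.21, adjusted p = 0.0207). At E4 it had 279, 201, 296, 188 and 309.6 CPM in the ICM and 121, 149, 212, 161 and 143 CPM in the TE, higher in the ICM in 5 of 5 litters (log2 0.66 ± 0.22, adjusted p = 0.0217). Across time it rose in the TE, without overlap (log2 0.82 ± 0.21, adjusted p = 0.00687), a call lost without the E4 litters with a zona (adjusted p = 0.0929). In the ICM it did not pass (log2 -0.50 ± 0.21, adjusted p = 0.0889). Its interaction, given above, was kept with any 1 library left out (adjusted p up to 0.0276) and not without the E4 litters with a zona (log2 -1.193, adjusted p = 0.0796). The D10 difference was lost when replicate 1 or 5 of the D10 ICM, or 5 of the D10 TE, was left out (adjusted p up to 0.0885), and the E4 difference when replicate 1, 3 or 5 of the E4 ICM, or 1, 2, 4 or 5 of the E4 TE, was left out (adjusted p up to 0.0782).

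**Figure D3:**
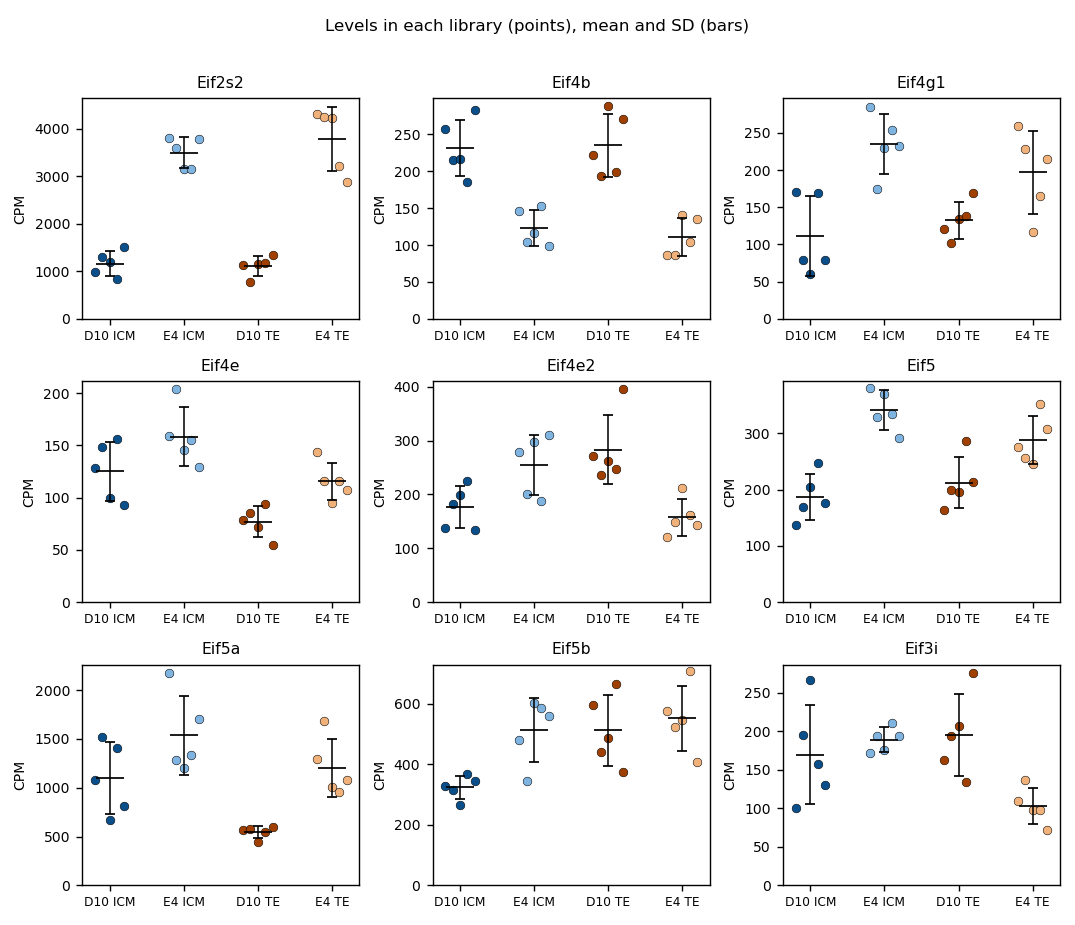
Levels of 9 initiation factors in CPM (linear axes from 0) in each of 20 libraries, by group. Points are libraries, the long bar is the mean and the whiskers 1 SD over 5 libraries. In Eif2s2 the D10 libraries of both tissues lie between 785 and 1518 CPM and the E4 libraries between 2890.5 and 4321 CPM, and in Eif4e2 the order of ICM and TE differs between D10 and E4.

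Members on the sex chromosomes were read by litter. Eif2s3y, the Y-linked copy of the gamma subunit, had 4.75, 0, 60.9, 0 and 51.1 CPM in D10 ICM, 0, 65.3, 0, 0 and 0 CPM in E4 ICM, 0, 0, 96.3, 1.75 and 109 CPM in D10 TE and 0, 95.4, 0, 0 and 0 CPM in E4 TE. Its counts split the litters, with 11 or more counts in each of the 6 libraries of 3 litters (G and S at D10, C at E4) and at most 1 count in each of the 14 others. The ICM and TE libraries of a litter fell on the same side in 10 of 10 litters. Ddx3y, another Y-linked gene, had at least 22 counts in those 6 libraries and at most 1 in the others, and Xist, transcribed from the inactive X, had 12.4 to 66.2 CPM in the 6 and 9.45 to 370.5 CPM in the 14. By edgeR with the count filter Eif2s3y was called in 0 of the 5 comparisons, and with no filter it was called lower in D10 ICM than in D10 TE (log2 -1.36, adjusted p = 0.0255). The groups hold unequal numbers of such litters, 2 of 5 at D10 and 1 of 5 at E4, and the part of this in the changes of Eif2s3x and Eif1ax across time was not tested. Without E4 TE replicate 2, of litter C, Eif2s3x was also called lower in the TE (log2 -0.81, adjusted p = 0.0208), and likewise without E4 TE replicate 5 (log2 -0.76, adjusted p = 0.0344).

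**Figure D4:**
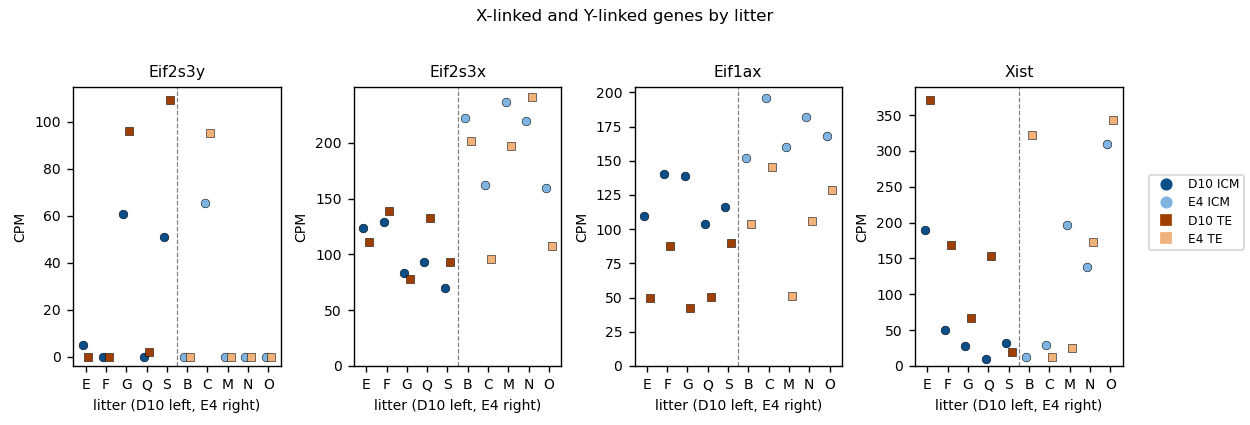
Levels in CPM of Eif2s3y, Eif2s3x, Eif1ax and Xist in each library by litter, with the 5 D10 litters left of the dashed line and the 5 E4 litters right of it. Circles are ICM and squares TE. Eif2s3y stands at 51.1 CPM or more in both libraries of litters G, S and C and at 4.75 CPM or less in all others.

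The 6 members that did not pass the count filter were Eif1ad3, Eif1ad7, Eif1ad15, Eif4e1b, Eif4e3 and Eif5a2. Eif4e1b, a cap-binding relative known from oocytes, had 0 counts in D10 ICM against 10 in E4 ICM, from replicates 1, 2 and 5, and 1 in D10 TE against 0 in E4 TE. With no filter on low counts Eif4e1b was called lower in D10 ICM than in E4 ICM (adjusted p = 0.00722) and higher in E4 ICM than in E4 TE (adjusted p = 0.0169). Eif4e3 had 12 counts in D10 ICM, all in replicate 4, against 1 in E4 ICM, and 25 in D10 TE against 10 in E4 TE. Eif5a2, the second gene for eIF5A, had 13 counts in D10 ICM against 3 in E4 ICM, and 3 in D10 TE against 0 in E4 TE. Eif1ad3, Eif1ad7 and Eif1ad15, on chromosome 12, had at most 4 counts in any group. The members Eif1ad, Eif1b, Eif2b4, Eif2b5, Eif3f, Eif3j1, Eif3j2, Eif3k, Eif3l, Eif3m, Eif4a3 and Eif4enif1 were tested and passed in no comparison by edgeR with all libraries. Under alternatives Eif3j1 was called lower in D10 ICM with limma voom (log2 -0.78, adjusted p = 0.0297) or without D10 ICM replicate 5 (adjusted p = 0.0201), and lower in D10 TE without D10 TE replicate 5 (adjusted p = 0.0302). Eif3f was called higher in D10 TE without E4 TE replicate 3 (adjusted p = 0.0368) or D10 TE replicate 4 (adjusted p = 0.0363). Eif4a3 was called higher in E4 ICM than in E4 TE without E4 ICM replicate 3 (adjusted p = 0.0433).

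Some counts could hold reads of other genes. Whether counting used strand is not given in the sources used here, and an exon of another gene lies on the opposite strand near the 3′ end of Eif3j1 (Spg11), Eif3m (Ccdc73), Eif4a2 (Rfc4) and Eif5b (Rev1), so reads of these pairs might not be told apart. On the same strand Eif4a1 overlaps Gm24029. In the last 600 bases of the annotated transcripts, words of 81 bases, the length of the sequenced insert, were shared with another gene for 15 members, with over 50% shared for Eif1ad3, Eif1ad7 and Eif3j2. For Eif2s3x 43.1% were shared with Gm2223, and for Eif2s2 11.3% with Gm9892. These are shares of sequence words, and how far the levels of these members are affected was not measured.

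Other genes of translation were listed by role, 58 in all, of which 43 were tested. Across time in the ICM 5 of the 43 rose and 9 fell, beside 13.7% of all tested genes called higher and 9.97% called lower. In the TE 7 of the 43 rose and 7 fell, beside 11.9% and 9.89%. Between the tissues 4 of the 43 were higher and 2 lower in the D10 ICM, beside 12.9% and 12.6%. In the E4 ICM 8 of the 43 were higher and 1 was lower, beside 15.8% and 15.4%. Of 9 genes of eIF2 kinases, phosphatase subunits and their targets 4 were tested. Eif2ak3, the kinase PERK that phosphorylates eIF2 under stress of the endoplasmic reticulum, rose in both tissues and was 1 of 2 genes of that list called in the ICM, Ppp1r15b falling. In the TE 1 gene of that list was called higher, Eif2ak3, and 2 were called lower, Ppp1r15b and Atf4. Eif2ak3 stood at 80.8, 196, 127, 57.7 and 144 CPM in D10 ICM against 6.34, 41.8, 34.7, 18.6 and 17.2 CPM in E4 ICM (log2 2.21 ± 0.46, adjusted p = 0.00112). In the TE it stood at 475, 497, 1027, 201 and 639 CPM at D10 against 34.5, 24.9, 63.3, 49.8 and 107 CPM at E4 (log2 3.39 ± 0.42, adjusted p = 2.09e-06). The groups did not overlap in either tissue, and at D10 every ICM library was below every TE library (log2 -2.23 ± 0.38, adjusted p = 7.03e-05).

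Among 11 inhibitors and kinases of the eIF4 group 8 were tested, and in the ICM Pdcd4 rose while Eif4ebp1 and Larp1 fell. In the TE Pdcd4 and Rps6kb2 rose while Eif4ebp1, Mknk2 and Larp1 fell. The TE call of Mknk2 was lost without E4 TE replicate 3, 4 or 5 or D10 TE replicate 2 or 4 (edgeR adjusted p up to 0.1). Between the tissues at D10, Eif4ebp1 and Larp1 were higher in the ICM and Rps6kb2 was lower. Pdcd4, which binds and blocks the helicase eIF4A, had 608, 954, 1053, 967 and 1152 CPM in D10 ICM against 127, 115, 116, 186 and 185 CPM in E4 ICM (log2 2.70 ± 0.29, adjusted p = 5.96e-07). It had 1051, 1097, 1354, 1211 and 1803 CPM in D10 TE against 230.2, 153, 87.6, 277 and 372 CPM in E4 TE (log2 2.57 ± 0.29, adjusted p = 5.9e-07), with no overlap in either tissue. Eif4ebp1, which sequesters Eif4e when mTOR is inactive and whose changes across time were chosen for description after they were seen, was lower at D10, with 74.2 to 133 CPM in D10 ICM against 232 to 399 CPM in E4 ICM (log2 -1.74 ± 0.38, adjusted p = 0.00154). Its TE values were 29.2 to 67.3 CPM at D10 against 29.9 to 263 CPM at E4 (log2 -1.43 ± 0.40, adjusted p = 0.0118), a call lost without E4 TE replicate 3 (adjusted p = 0.196). At E4 it was higher in the ICM than in the TE (log2 1.45 ± 0.37, adjusted p = 0.004), a call lost without the E4 litters with a zona (adjusted p = 0.0761). Larp1, which binds messenger RNAs that begin with a pyrimidine tract, had 157 to 223 CPM in D10 ICM against 292 to 373 CPM in E4 ICM (log2 -0.85 ± 0.18, adjusted p = 0.00142), and 97.8 to 148 CPM in D10 TE against 189.9 to 329 CPM in E4 TE (log2 -1.12 ± 0.18, adjusted p = 8.98e-05). Mknk2, a kinase of Eif4e, was lower in E4 ICM (12.7 to 34.7 CPM) than in E4 TE (28.8 to 93 CPM), with log2 -1.42 ± 0.42, adjusted p = 0.0121.

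In the remaining lists, Paip2b, an inhibitor of the poly(A)-binding protein, had 37.8 to 127 CPM in D10 ICM against 2.61 to 25.4 CPM in E4 ICM (log2 2.198 ± 0.46, adjusted p = 0.00123) and 7.3 to 20.1 CPM in D10 TE (log2 2.12 ± 0.43, adjusted p = 0.000513 for ICM against TE at D10). Pabpc1, which encodes a poly(A)-binding protein, was called lower at D10 in both tissues. Its mean was 1763 CPM in D10 ICM against 2690 in E4 ICM, and 1388 in D10 TE against 2450 in E4 TE. Of the other calls across time in these lists, Mcts2 and Eef2 rose in both tissues, and Eef1b2 and Eef1d in the TE. Denr, Eef1e1, Eef1g and Gspt1 fell in the ICM, and Etf1 in both tissues. Bzw2, which competes with Eif5 for eIF2, was higher in the D10 ICM, at 133 to 309 CPM, than in the D10 TE, at 56.2 to 126 CPM (log2 1.30 ± 0.25, adjusted p = 0.000291). Eef1d, a subunit of the exchange factor of elongation, had 340.0 to 604 CPM in D10 ICM, 389 to 585 CPM in E4 ICM, 279.5 to 614 CPM in D10 TE and 151 to 203 CPM in E4 TE. It was above the TE in the E4 ICM (log2 1.48 ± 0.22, adjusted p = 1.46e-05), and its change across time differed between the tissues (log2 -1.21 ± 0.30, adjusted p = 0.0173), 1 of the 43 listed genes to do so, a call that was not kept without the E4 litters with a zona (adjusted p = 0.0724).

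**Figure D5:**
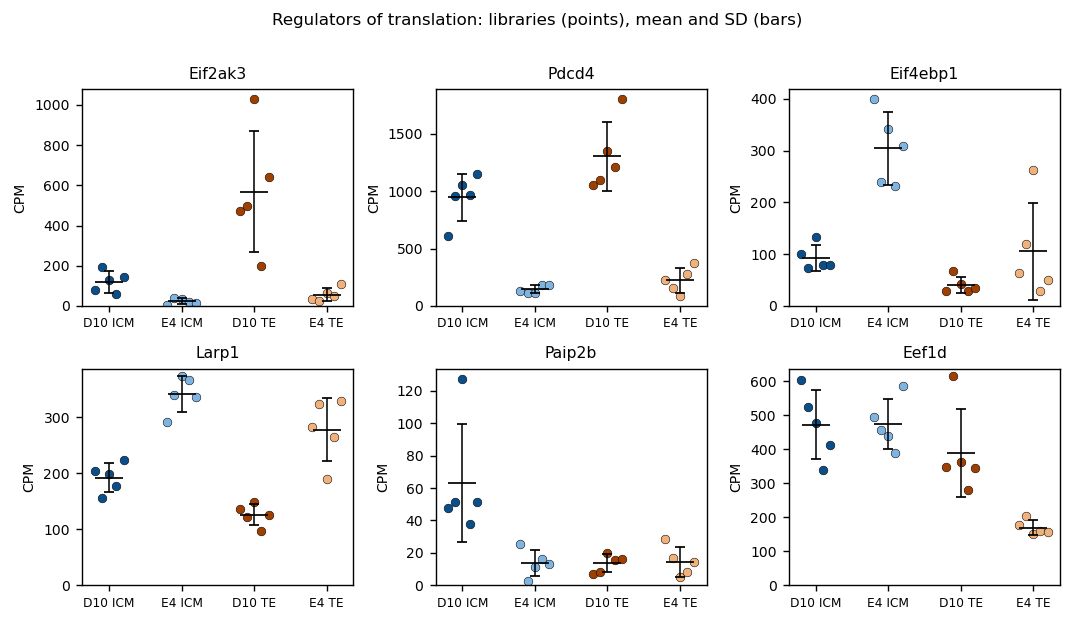
Levels of 6 genes of translation outside the initiation factors in CPM (linear axes from 0) in each of 20 libraries, by group. Points are libraries, the long bar is the mean and the whiskers 1 SD over 5 libraries. Eif2ak3 and Pdcd4 lie higher and Larp1 lower at D10 in both tissues, and every D10 ICM library lies above every library of the other groups in Paip2b.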

How the data were processed

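The deposited table holds counts per gene for 20 libraries, 4 groups of 5, as raw whole numbers. Per the labels' protocols, a 10-base UMI and a 9-base barcode were read first, followed by an insert of 81 bases. Per the submitters' processing notes, genes were counted with featureCounts 2.0.1, and HISAT2 2.2.1, Trim Galore 0.6.7 and UMI-tools are also named. Those notes name the mouse build GRCm38 and also GRCh38, whose role they do not give. Whether UMIs were collapsed and strand was used is not given in the sources used here, and without collapsed UMIs counts are not independent molecules.

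All 4 groups were fitted together in edgeR 4.0.16 (R 4.3.3; TMM scaling, genes kept by filterByExpr with a count minimum of 10, quasi-likelihood test), and p-values were adjusted by Benjamini-Hochberg over all 6943 tested genes at a threshold of 0.05. CPM are counts relative to the total over tested genes, scaled by TMM. Between libraries of a group the lowest chi-square per degree of freedom was 2.57, so none was a repeat of another. The members and lists were chosen with earlier results of these data known. Values in every library are given for 16 fixed members and for up to 6 called per direction and comparison, and for up to 3 listed genes per comparison. Nat1, listed in error, was left out. Alternatives were RLE scaling, DESeq2 1.42.0, limma 3.58.1 voom, no filter, a count minimum of 30, libraries thinned to 1 total, litter as a block, fits without the E4 litters with a zona, fits of only the compared groups, and fits without each library in turn. The procedure was tested on simulated data.

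The deposited barcode list names the litter of each library, so litter pairs ICM with TE within a time. Deviations from the group means correlated on average at 0.168 within the D10 litters (-0.0302 to 0.293) and 0.177 within the E4 litters (0.104 to 0.263), against -0.0418 and -0.0435 between different litters at D10 and at E4.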

Additional observations from a re-analysis of the deposited data

Results flagged for a closer look

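Of 132 groups of 5 values examined, the named members and the class sums in each group, 8 had a highest or lowest library set apart from the nearest other by more than 0.71 of the group's range. Chance alone gives about 1 such group in 20, and no explanation was tested.

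Eif1 stood at 861.7 CPM in E4 TE replicate 3, with the nearest library at 425.8 CPM, and the eIF1 sum of that library was 1456 CPM with the nearest at 926.4 CPM. The eIF1 sum was 1091 CPM in D10 ICM replicate 2, with the nearest at 945.9 CPM. Eif4a1 stood at 507.2 CPM in E4 ICM replicate 1, with the nearest at 369.8 CPM, and the eIF4 sum of that library was 3645 CPM with the nearest at 2988 CPM. Eif4e2 stood at 396.1 CPM in D10 TE replicate 5, with the nearest at 271.9 CPM. Eif2s3y stood at 65.3 CPM in E4 ICM replicate 2 and at 95.4 CPM in E4 TE replicate 2, both of litter C, with the other libraries of those groups at 0.

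The change of Eif4e2 across time differed between ICM and TE by -1.32 on the log2 scale (edgeR adjusted p = 0.0094), being -0.50 in the ICM and 0.82 in the TE.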

How the results depend on the processing

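No call of a member changed direction under any alternative run. Of the 35 calls, RLE scaling kept 35, limma voom 34 and DESeq2 33, a count minimum of 30 kept 33 of 33, fits of only the compared groups 30 of 32, thinned libraries 24 of 33, no filter on low counts 19 and the fits without the E4 litters with a zona 21. The members called higher in D10 TE against E4 TE, 8 in all, were 5 with no filter, 5 with thinned libraries and 4 without the zona litters. In E4 ICM against E4 TE 10 were called higher, against 2 with no filter, which were Eif3i of the 10 and Eif4e1b from outside them, and 3 without the zona litters. The 2 lower in D10 ICM against D10 TE were 1 with thinned libraries. The 1 with a lower change in ICM than in TE was 2 with DESeq2, 2 with limma voom, 2 with a count minimum of 30 and 0 without the zona litters. The cause was not tested. The zona fits held fewer libraries and left out the zona litters, which cannot be told apart, and thinned libraries had smaller counts.

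With 1 library left out, the members called higher and lower in D10 ICM against E4 ICM ranged from 1 to 1 and from 6 to 8, and in D10 TE against E4 TE from 4 to 8 and from 2 to 5. In E4 ICM against E4 TE they ranged from 4 to 10 and from 0 to 0, and in D10 ICM against D10 TE from 3 to 4 and from 1 to 2. For the difference of the changes they ranged from 0 to 0 higher and from 1 to 2 lower.

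With litter as a replicate block, 15 of 16 calls between tissues or of the difference of changes were kept, Eif2d at E4 being lost. The members with a lower change in ICM than in TE were 2 with the block, and it changed no other call. Each litter was sampled at 1 time, so the block does not apply across time.

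At a depth of 144276 to 1010354 counts, Eif4e3 and Eif5a2, with few counts, were called under no setting, and Eif4e1b was called with no filter alone, so their differences are poorly resolved.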
